A study of Mus musculus with 13 samples.

Results

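Replication origins of untreated mouse embryonic stem (ES) cells were mapped from 3 SNS-seq peak lists, 1 for each control replicate. SNS-seq purifies short RNA-primed nascent DNA strands, which are made where replication starts, and sequences them, so that peaks mark initiation sites. Peaks of the 3 lists that overlapped by at least 1 bp were merged on the 21 nuclear chromosomes, and a merged region was taken as an origin where at least 2 of the 3 lists had a peak. This gave 73169 origins among 161001 merged regions, or 45.4% of them.

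The cells were CGR8, a male mouse ES line that grows without feeder cells, kept on gelatin in medium with leukemia inhibitory factor (LIF). The control cultures received the solvent alone, 0.5% DMSO for 48 h, and no G-quadruplex ligand. The study compared them with cells given PhenDC3, a small molecule that binds G-quadruplexes, and the lists of the treated cells were not used here. The study's methods call the control replicates biological replicates.

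Mammalian cells license many more origins than they use in a single S phase, and origins have no strict consensus sequence. The origin recognition complex marks the sites, the MCM helicase is loaded there in G1, and a part of the loaded helicases is switched on in S phase by Cdc7-Dbf4 and Cdc45. In mouse ES cells origins are known to lie often in GC-rich sequence, close to promoters, and a short way downstream of G-rich elements that can fold into a stacked structure, the G-quadruplex (G4). A list of SNS-seq peaks describes a population of cells, so it holds sites that fire in only a fraction of the cells.

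RNA of control cells was read in 3 libraries with 22232014 to 29486502 counts, as a check of the cell label. All 8 ES cell markers were present, at 209 to 2442 CPM (counts scaled to the library total), with a summed level of 6752 to 7821 CPM. The fibroblast and feeder markers summed to 7.57 to 8.32 CPM, and 4 of these 6 genes were under 1 CPM, with Lum and Dcn at 0 in all 3 libraries. Markers of primitive endoderm summed to 19.6 to 38.9 CPM over 4 genes, of trophoblast to 4.95 to 5.93 CPM over 3 genes, of mesoderm to 1.51 to 1.57 CPM over 3 genes, and of neural cells to 69.1 to 76.4 CPM over 3 genes, of which Tubb3 reached 67.5 CPM.

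Stretches of 300 bases from 5 origins are shown in the mm10 build, 5′ to 3′, as examples of the kinds of site described here. They are the strongest origin with a predicted G4 within 500 bp of its midpoint and the strongest origin without one there. Next come the strongest isolated origin and the strongest origin within 2 kb of a TSS of a pluripotency gene. The last is the strongest origin of the largest cluster. Capitals mark the predicted G4 in the sequences from chr12, chr17 and chr8, which are printed on the G-rich strand, and the stretch that holds the peak summits of all 3 lists in those from chr11 and chr15. The chr12 stretch is intergenic, 62103 bp from Dio2 for the whole origin, and the chr15 stretch is intergenic, 380302 bp from Efr3a, with 91.7% of its surroundings repeat-masked. The chr11 stretch lies in an intron of Tex14 and includes 36 bases of the exon of the small RNA gene Rnu3b1. The chr17 stretch lies in Pou5f1, with 158 bases in a coding exon and the rest in an intron, and the chr8 stretch lies between 5S ribosomal RNA genes.
Origin with a G4, chr12:90801340-90801639, minus strand: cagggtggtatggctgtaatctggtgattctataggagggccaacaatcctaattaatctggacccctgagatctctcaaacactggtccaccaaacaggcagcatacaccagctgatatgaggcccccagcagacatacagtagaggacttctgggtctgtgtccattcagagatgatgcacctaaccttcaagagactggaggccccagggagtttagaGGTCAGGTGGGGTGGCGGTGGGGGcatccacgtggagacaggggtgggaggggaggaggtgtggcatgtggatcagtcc
Origin without a G4, chr11:87442973-87443272, plus strand: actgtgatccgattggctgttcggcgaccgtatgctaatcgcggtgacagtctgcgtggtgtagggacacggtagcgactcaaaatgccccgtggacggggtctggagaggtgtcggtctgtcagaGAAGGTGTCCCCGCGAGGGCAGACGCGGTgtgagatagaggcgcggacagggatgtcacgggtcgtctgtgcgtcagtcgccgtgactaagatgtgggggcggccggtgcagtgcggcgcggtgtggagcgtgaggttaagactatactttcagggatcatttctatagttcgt
Isolated origin, chr15:65406349-65406648, plus strand: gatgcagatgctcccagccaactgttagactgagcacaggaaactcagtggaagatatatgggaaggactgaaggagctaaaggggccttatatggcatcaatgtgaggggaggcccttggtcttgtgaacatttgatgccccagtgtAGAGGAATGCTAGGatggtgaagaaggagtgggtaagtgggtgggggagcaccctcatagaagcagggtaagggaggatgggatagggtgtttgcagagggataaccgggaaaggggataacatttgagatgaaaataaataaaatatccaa
Origin at Pou5f1, chr17:35509982-35510281, minus strand: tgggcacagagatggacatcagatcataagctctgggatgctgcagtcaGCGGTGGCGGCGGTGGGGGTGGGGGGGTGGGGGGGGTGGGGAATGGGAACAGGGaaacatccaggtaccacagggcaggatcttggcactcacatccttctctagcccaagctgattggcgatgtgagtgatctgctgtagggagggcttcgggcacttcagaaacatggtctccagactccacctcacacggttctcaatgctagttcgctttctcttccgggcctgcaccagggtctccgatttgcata
Origin of the largest cluster, chr8:123569517-123569816, minus strand: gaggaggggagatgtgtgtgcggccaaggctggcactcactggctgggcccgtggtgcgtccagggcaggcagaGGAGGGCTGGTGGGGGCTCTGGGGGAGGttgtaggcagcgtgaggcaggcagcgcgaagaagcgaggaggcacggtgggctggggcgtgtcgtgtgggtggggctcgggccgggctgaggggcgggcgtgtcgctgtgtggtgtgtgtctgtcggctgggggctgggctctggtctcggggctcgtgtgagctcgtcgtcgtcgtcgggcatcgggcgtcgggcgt

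The 3 lists were unequal. Replicate 1 held 120882 peaks, replicate 2 held 81211 and replicate 3 held 79377, and each list had been called separately against the same RNase-treated control library. The lists give no read counts, so the depth of each library is unknown. Of the regions with a peak in a list, 55.0% became origins for replicate 1, 79.6% for replicate 2 and 74.2% for replicate 3. Replicate 1 alone contributed 52734 regions seen in no other list, against 15935 for replicate 2 and 19163 for replicate 3.

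All 3 lists shared 35458 origins, which is 48.5% of the origins. The other 37711 were found in 2 lists, of which 18034 in replicates 1 and 2, 11074 in replicates 1 and 3, and 8603 in replicates 2 and 3. Summits of shared origins lay close together between lists, which the merging of overlapping peaks in part requires, since single peaks had median widths of 170 to 236 bp. How close they would lie from overlap alone was not tested. The summits of the strongest peaks lay within 100 bp of each other in 79.8% of the 53492 origins shared by replicates 1 and 2, in 82.0% of the 46532 shared by replicates 1 and 3, and in 83.3% of the 44061 shared by replicates 2 and 3, with median distances of 28, 32 and 32 bp. The number of origins depended on the lists used, and was 44637 to 53589 when 1 list was left out and the other 2 had to share a peak, with the lowest number without replicate 1.

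Origins covered 29.8 Mb, or 1.12% of the 2648 Mb of sequenced genome, at a mean density of 27.6 origins per Mb. Over the 73148 distances between the midpoints of neighbouring origins the median was 13.01 kb, and the middle 50% ran from 2.54 to 39.6 kb. The mean distance was 36.3 kb with an SD of 92.3 kb, so the distances were very unequal. Without the 112 distances that span an assembly gap of at least 50 kb the mean was 35.4 kb and the coefficient of variation 2.11.

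The distances fell into a short and a long class on a log scale. The short class was highest between 1000 and 1259 bp, where 1 bin held 3.27% of the distances, the trough lay between 1585 and 1995 bp with 2.13%, and the main maximum lay between 25119 and 31623 bp with 5.47%. The short maximum differed between the lists, at 398 to 501 bp for the peaks of replicate 1, 794 to 1000 bp for replicate 2 and 251 to 316 bp for replicate 3. Peaks of each list taken alone were closer together than origins, with median distances of 4.56 kb in replicate 1, 10.2 kb in replicate 2 and 12.3 kb in replicate 3. Requiring a peak in all 3 lists gave a median distance of 31.6 kb, and leaving out 1 list gave 17.5 to 24.1 kb, the largest without replicate 1.

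**Figure D1:**
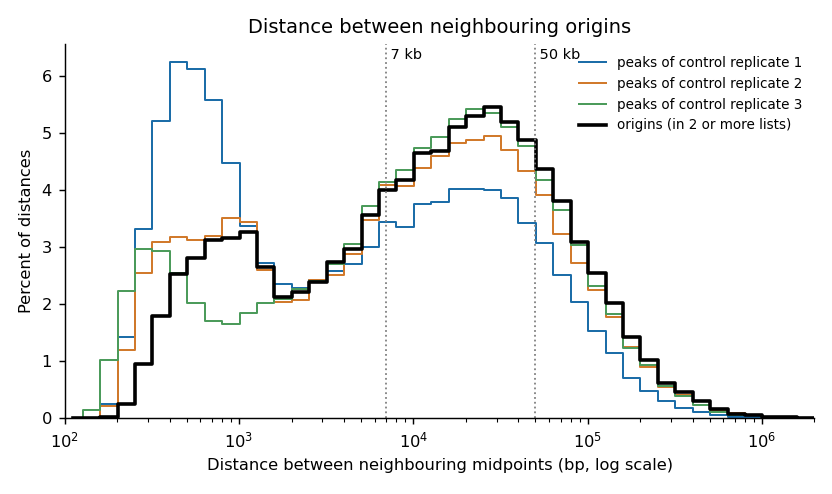
Distribution of the distance between the midpoints of neighbouring sites (bp, log axis), as a percentage of distances, for the 73169 origins and for the peaks of each of the 3 control lists. The origins have a first maximum between 1000 and 1259 bp and a main maximum between 25119 and 31623 bp, and the peaks of replicate 1 are shifted to shorter distances.

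A neighbour within 1 kb was present for 26.3% of origins (95% Wilson interval 25.9 to 26.6%), within 7 kb for 58.3% (58.0 to 58.7%) and within 50 kb for 92.5% (92.3 to 92.7%). Such intervals cover counting error only. Origins placed independently at an even density would have shares of 5.38% for 1 kb, 32.1% for 7 kb and 93.7% for 50 kb. Leaving out 1 list gave 42.4 to 53.7% for 7 kb, the lowest without replicate 1. From edge to edge, 5848 neighbouring pairs (7.99%) were separated by less than 200 bp, and whether such a pair is 1 initiation zone called as 2 peaks was not tested.

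Origins linked by steps of at most 7 kb formed 5941 clusters of 3 or more. These clusters held 25350 origins, 34.6% of all, in spans that added up to 46.2 Mb or 1.74% of the genome, with a median span of 6.35 kb. A further 8663 pairs and 30493 single origins (41.7%) lay outside clusters. At the other extreme, 5485 origins (7.496%, 95% Wilson interval 7.31 to 7.69%) had no other origin within 50 kb and are called isolated. Without 1 list the clustered share was 18.7 to 30.7%, the lowest without replicate 1. The lists were also cut to the same number of peaks, those of each with the smallest p-values of the peak calling. This gave 64245 origins at a median distance of 15.6 kb, and 29.9% of them were clustered.

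Clustered origins lay in GC-rich sequence near genes more often than isolated ones. A transcription start site (TSS) lay within 2 kb of 40.4% of clustered origins (95% Wilson interval 39.8 to 41.03%) and of 6.36% of isolated origins (5.75 to 7.04%). The median GC content of the 1 kb around the midpoint was 54.3% in clusters and 45.7% at isolated origins, against 41.4% in 1 kb tiles of the whole genome. Repeat-masked bases made up 19.7% of that window in clusters and 45.4% at isolated origins, against 36.4% of the genome. The share with a G4 within 500 bp was close, 65.7% in clusters (65.2 to 66.3%) and 63.9% at isolated origins (62.6 to 65.1%).

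The largest cluster held 39 origins in 93.8 kb of chromosome 8 (positions 123536640 to 123630405). Only its edge overlaps Gas8, a gene of the dynein regulatory complex of cilia. The cluster covers the array of 5S ribosomal RNA genes, and 48 of the 62 annotated ribosomal RNA genes of the assembly lie in it. All 39 origins were present in all 3 lists. The median distance between them was 2482 bp, against 1698 bp between the starts of neighbouring 5S genes. Of the 39, 37 lay within 2 kb of the start of a 5S gene. This window is wider than the spacing of the genes, so the count does not show that the origins lie at the genes. Their median fold enrichment ranked at percentile 98.9 of its list in replicate 1, at 85.8 in replicate 2 and at 82.4 in replicate 3, while the weakest of them ranked at 55.6, 21.9 and 3.28. The array consists of near-identical copies. In the strongest of these origins, shown above, the median 32-base word occurred 49 times in the assembly, and how the reads were placed among the copies was not tested.

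The second largest cluster, with 38 origins at positions 90755228 to 90811062, lay near the end of chromosome Y, where 29 of the 38 were in 3 lists. Sequence shared with chromosome X made up at least 50% of 27 of these origins, counted in 32-base words, so that a read could belong to either chromosome. The nearest coding gene was Gm52481, at 10145 bp. The next clusters lay in gene-dense autosomal sequence. On chromosome 10 (80292361 to 80360199) 33 origins, 17 of them in 3 lists, covered Rps15, which encodes a protein of the small ribosomal subunit, Apc2, a relative of the Wnt regulator Apc, Plk5, a Polo-like kinase gene, and 4 further genes between them. On chromosome 11 (115780228 to 115864042) 32 origins lay over Tmem94, Caskin2, the tRNA splicing gene Tsen54, the cell polarity gene Llgl2 and Myo15b. On chromosome 7 (45759844 to 45834924) 29 origins lay over Lmtk3, Cyth2, the potassium channel gene Kcnj14, the ribosome assembly gene Grwd1 and Grin2d, a subunit of the NMDA receptor.

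Long stretches without an origin made up much of the genome. Distances above 200 kb numbered 1985, or 2.71% of all, and the 1916 of them without an assembly gap covered 24.9% of the genome. The 3 longest without a gap were on chromosome Y, of 5530, 4139 and 3927 kb, in sequence of which 97.7, 96.7 and 98.3% is repeat-masked. In the longest of them (84661790 to 90191908), replicate 1 had 8 peaks and the other lists none. The next 2 were on chromosome X. A stretch of 2651 kb (147301379 to 149952459) held 14 coding genes, among them Il13ra2, a decoy receptor for interleukin 13, and Ott, a testis-expressed gene, and it held 7, 0 and 3 peaks in replicates 1, 2 and 3. A stretch of 2549 kb (119518917 to 122067609) held Pabpc5, the adhesion gene Pcdh11x and the histone variant gene H2ab3, and had 6, 2 and 2 peaks.

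The longest autosomal ones were named after their values were seen. They covered the androgen-binding secretoglobin (Scgb) gene family on chromosome 7 over 2263 kb, and the Skint family, relatives of a gene needed for skin T cells, on chromosome 4 over 2166 kb. Both are families of recently duplicated genes, and 55.5 and 53.3% of their bases were repeat-masked.

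The median origin was 345 bp wide, and the middle 50% measured 240 to 501 bp. Peaks of single lists were narrower, with median widths of 227, 236 and 170 bp in replicates 1, 2 and 3. Only 1914 origins (2.62%) exceeded 1 kb. Wide origins had higher fold enrichment, with Spearman's rho of 0.315 between width and mean percentile over the 73169 origins, given as a description since both come from the same peak calls.

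Origins over 1 kb were in all 3 lists more often (82.1%) than all origins (48.5%). Each further list can only widen a merged region, and a wide region meets more peaks, so this difference is in part built in. Origins over 1 kb also had a TSS within 2 kb more often (37.3% against 23.9%). They had a predicted G4 within 500 bp of the midpoint less often (36.8% against 66.6%). That window ends inside an origin over 1 kb, so a G4 nearer its edges can be missed. The widest origin measured 10275 bp on chromosome 3 (6297366 to 6307640), in sequence whose median 32-base word has 2241 copies in the assembly. The next 4 in width, of 7520, 6663, 6559 and 6134 bp, lay in a stretch of chromosome 10 with a median of 2838 copies, on chromosome X near Mid1 with 35 copies, in the 5S array with 49 copies, and on chromosome 2 with 2244 copies.

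Strength was taken as the fold enrichment of the strongest peak of an origin over the RNase-treated control, ranked as a percentile of all peaks of its list. Median fold enrichment at origins was 6.02 in replicate 1, 5.20 in replicate 2 and 6.09 in replicate 3, and the highest value of any peak was 52.1, 29.6 and 32.1. Lists ranked shared origins in partly the same order. Spearman's rho of fold enrichment was 0.586 between replicates 1 and 2, 0.536 between 1 and 3 and 0.559 between 2 and 3, over the origins each pair shared and with the control library in common. Of the strongest 10% of shared origins in 1 list, 41.4 to 44.8% were also among the strongest 10% of the other.

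Groups of origins were then compared within each list, and the sign of the 3 differences of medians was tested by an exact permutation test, for which 0.25 is the smallest two-sided p that 3 lists allow, so that none of the comparisons could pass 0.05. The p-values were Benjamini-Hochberg adjusted over 5 comparisons. Of these, the one between origins in 3 and in 2 lists is given with no p, because a stronger peak is more likely to be called in every list. Origins in 3 lists ranked above those in 2 lists by 19.6, 20.1 and 16.6 percentile points in replicates 1, 2 and 3 (mean 18.8 ± 1.92, SD, n = 3 lists). Clustered origins ranked below isolated ones in each list, by -16.1, -15.5 and -20.4 points (mean -17.3 ± 2.65, n = 3, exact permutation p = 0.25, adjusted 0.3125). Origins near a TSS ranked below the others by -18.1, -9.20 and -21.0 points (mean -16.1 ± 6.14, n = 3, exact permutation p = 0.25, adjusted 0.3125), but with −log10 p in place of fold enrichment the mean difference was 6.60 points, and no list had a negative one. Clustered and isolated origins differed by -7.95 to 3.86 points on that scale, with a mean of -0.32.

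Origins on chromosome X ranked above autosomal ones by 11.3, 14.3 and 15.4 points (mean 13.7 ± 2.13, n = 3, exact permutation p = 0.25, adjusted 0.3125), but with −log10 p the differences ran from -3.41 to 6.84 points, with a mean of 1.36, and the X ranked lower in replicate 1. Of the 1183 X origins, 264 lay in sequence shared with chromosome Y by at least 50%, counted in 32-base words. These had median percentiles of fold enrichment of 76.9, 80.6 and 83.5 in replicates 1, 2 and 3. Other X origins had 70.2, 68.0 and 70.6, and autosomal ones 61.1, 56.0 and 58.5. Origins with and without a G4 within 500 bp did not differ beyond the spread between lists. Their differences were 2.57, -1.29 and 3.77 points (mean 1.68 ± 2.64, n = 3, exact permutation p = 0.5, adjusted 0.5).

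**Figure D2:**
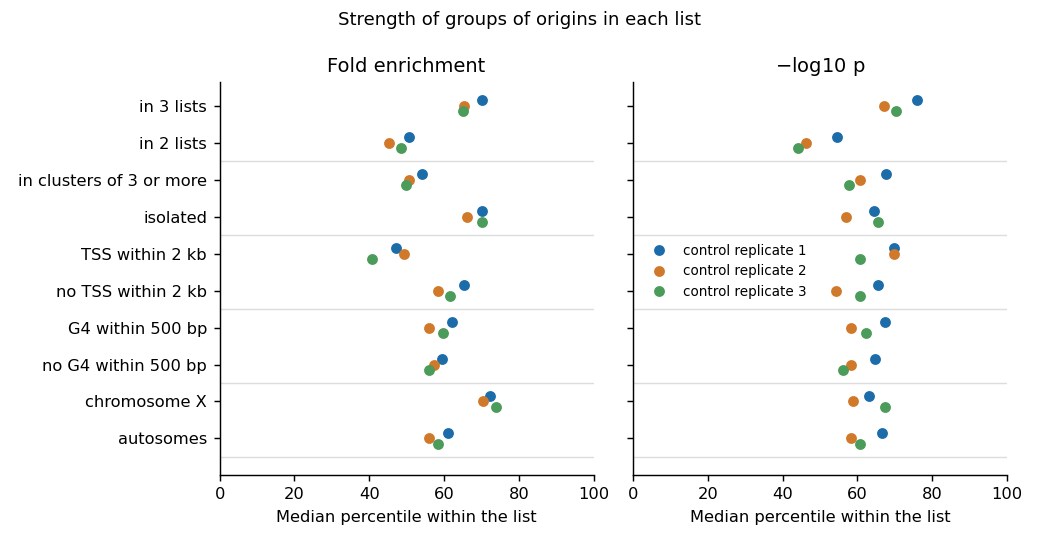
Median percentile of fold enrichment (left) and of −log10 p (right) within each control list, for groups of origins, with 1 point for each of the 3 replicates. Clustered and TSS origins sit to the left of isolated and other origins by fold enrichment in every list, and by −log10 p the TSS origins are lower in none.

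The 5 strongest origins present in all 3 lists had fold enrichments of 20.7 to 37.9, and 3 of them lay at genes annotated as small nuclear RNA. The first, on chromosome 11 (87441800 to 87443467), had fold enrichments of 28.2, 22.3 and 30.9 in replicates 1, 2 and 3, and the second (87461536 to 87462546) had 37.9, 29.6 and 25.8. Both lie in introns of Tex14, a gene of germ cell bridges, at the U3 RNA genes Rnu3b1 and Rnu3b4, whose RNA guides the processing of ribosomal RNA. The next, on chromosome 1 (72243652 to 72244365), with folds of 23.5, 20.7 and 29.1, lies at the start of the non-coding gene D230017M19Rik and at the small nuclear RNA gene Gm24497. Another was in an intron of Ss18, a chromatin remodelling gene on chromosome 18, with folds of 24.3, 23.0 and 25.1, and the last, on chromosome 12 (90801141 to 90801710), lay 62103 bp from Dio2, a thyroid hormone deiodinase gene, with folds of 22.3, 22.4 and 32.1. Further down the ranking such genes were less frequent. Genes of snRNA, snoRNA, tRNA or rRNA were at 3 of the 20 strongest origins in 3 lists and at 7 of the 100 strongest. They were at 1.06% of all origins in 3 lists.

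Of the 5 strongest origins, only that on chromosome 12 has a predicted G4 within 500 bp of its midpoint. In the sequence shown above this G4 starts 154 bases downstream of the highest point of the signal, not upstream of it. The first and second strongest, 1668 and 1011 bp wide, extend beyond that window. The second strongest origin consists of 32-base words of which 45.0% are single in the assembly, and the first of words of which 64.9% are single. Over all genes of small nuclear RNA, 332 of 997 (33.3%) had an origin in the gene or within 500 bp, against 59.99% of protein-coding and 37.2% of lncRNA genes, which are longer. The 349 origins at them had a median strength of 81.8, against 55.5 for all origins, and made up 27 of the 732 strongest 1% (3.69%) against 0.477% of all origins. Among tRNA genes 227 of 403 (56.3%) had one. A G4 was near 21.5% of the origins at small nuclear RNA genes and near 22.2% of those at tRNA genes. Genes of these classes have many near-identical copies, and the placement of reads among them was not tested.

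A TSS of a curated RefSeq transcript lay within 2 kb of 17464 origins, or 23.9% (95% Wilson interval 23.6 to 24.2%), while 3.94% of sequenced bases lay that close to one, a ratio of 6.06. Replicate 3 stood apart here, since 13.6% of its peaks were near a TSS against 23.6% in replicate 1 and 27.8% in replicate 2. Without replicate 3 the share of origins was 29.4%, and the lowest share with 1 list left out was 16.3%. Exons away from a TSS held 4.16% of origins, introns 31.9% and intergenic sequence 40.1%. Per Mb, origins numbered 167 near a TSS, 53.0 in exons, 25.4 in introns and 18.7 in intergenic sequence.

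Origins near a TSS were wider, with a median of 403 bp against 331 bp for the others, and more closely spaced, with a median distance to the nearest origin of 1.04 kb against 6.85 kb. They were found in 3 lists less often, 37.9% against 51.8%, and this came from replicate 3, which had a peak at 47.8% of them against 84.0% of the others. Replicates 1 and 2 had a peak at 95.4 and 94.7% of TSS origins, against 86.0 and 81.8% of the others. By the rule of 2 lists, an origin without a peak in replicate 3 must have one in both replicates 1 and 2. These higher shares are therefore in part built in, and do not show separately that replicates 1 and 2 favour TSS origins. Their surroundings had a median GC content of 57.6% against 48.1%, and an observed over expected CpG ratio of 0.62 against 0.20.

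A predicted G4 lay within 500 bp of the midpoint of 66.6% of origins (95% Wilson interval 66.2 to 66.9%), while 18.8% of sequenced bases lay that close to one, a ratio of 3.54. G4s were predicted with G4Hunter, which scores runs of G against runs of C in windows of 25 bases, at a threshold of 2. In the single lists the share was 57.3, 63.6 and 63.7% of peaks. It was 73.3% for origins in 3 lists (72.8 to 73.7%) and 60.3% for those in 2 lists (59.8 to 60.8%). Near a TSS 64.2% of origins had a G4 and away from one 67.3%. The share changed with the rule, to 86.6% at a threshold of 1.5 and to 36.3% within 250 bp.

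The predicted G4 lay on the upstream side of the summit when all sequences were turned so that the G-rich strand read 5′ to 3′. The share of summits covered by a G4 was highest 224 bp upstream in replicate 1 (9.59%), 202 bp upstream in replicate 2 (10.8%) and 236 bp upstream in replicate 3 (10.9%). Between 100 and 400 bp the upstream share exceeded the downstream share 4.72, 4.93 and 6.44 times. In each list this ratio was larger for the strongest 25% of origins, at 5.83, 5.70 and 8.84, than for the weakest 25%, at 3.63, 4.41 and 5.00. The sequence shown at Pou5f1 follows this pattern, with its G4 starting 175 bases upstream of the summit. In the 5S array the G4 shown starts 138 bases upstream of 1 summit, but the summits of the lists lie up to 5064 bp apart in that wide origin, and no G4 lies within 500 bp of its midpoint.

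**Figure D3:**
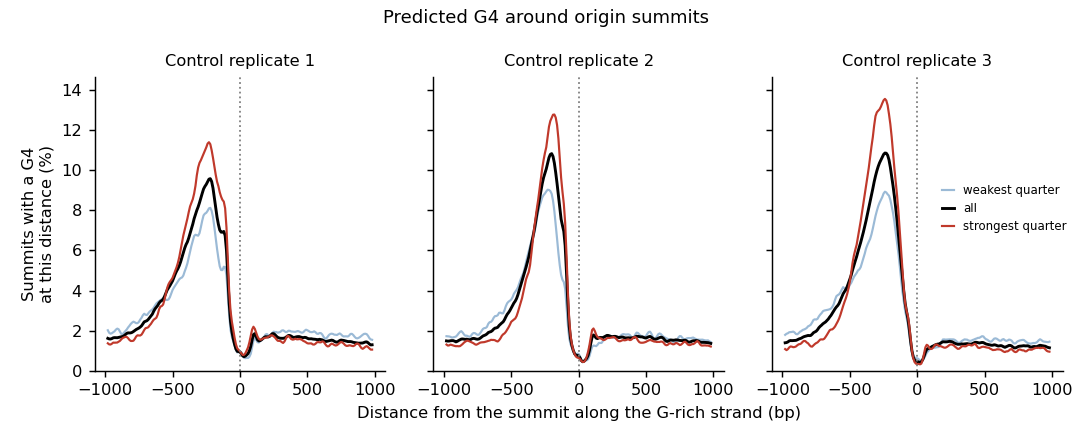
Share of peak summits covered by a predicted G4 (percent) against the distance from the summit (bp, negative is upstream on the G-rich strand), for all origins and for the weakest and strongest 25% in each of the 3 control lists. A single maximum of 9.59 to 10.9% for all origins lies 202 to 236 bp upstream in the 3 lists.

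Chromosomes differed in origin density by more than the lists did. Over the 19 autosomes the density ran from 18.6 origins per Mb on chromosome 14 to 46.2 on chromosome 11, a ratio of 2.48, and chromosomes 17 and 19 followed with 38.0 and 37.7. Chromosome 11 was first and chromosome 14 last among the autosomes in peaks per Mb of all 3 lists. The order of autosomes was nearly the same in the lists, with Spearman's rho of 0.991, 0.982 and 0.991 for the 3 pairs. Density went with base composition and gene content. Over the 19 autosomes, which share their libraries, Spearman's rho with density was 0.912 for GC content, 0.837 for coding genes per Mb and 0.949 for predicted G4s per Mb.

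The median distance was 7.90 kb on chromosome 11 and 23.2 kb on chromosome 14. The clustered share did not follow density at the low end, with 46.6% on chromosome 11, 29.1% on chromosome 14 and the lowest autosomal value, 23.2%, on chromosome 1. Isolated origins made up 2.99% of those on chromosome 11 and 13.3% of those on chromosome 14.

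**Figure D4:**
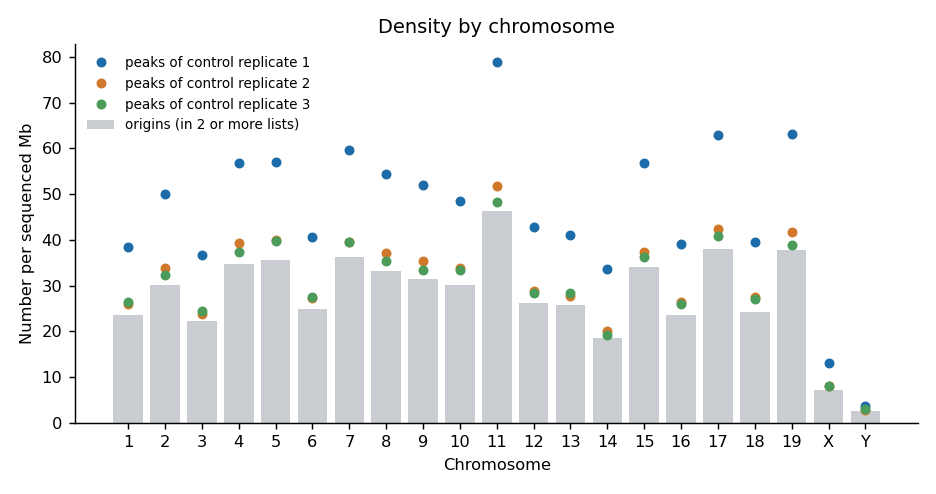
Density on each chromosome (number per Mb of sequenced bases), with bars for origins and 1 point for the peaks of each of the 3 control lists. Origins on autosomes range from 18.6 per Mb on chromosome 14 to 46.2 on chromosome 11, chromosome X stands at 7.24 and chromosome Y at 2.49, and the peaks of replicate 1 are the most frequent on every chromosome.

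The sex chromosomes had far fewer origins than any autosome. In this male line X and Y are present in fewer copies than the autosomes, and whether this changed the number of peaks called was not tested. Chromosome X had 1183 origins or 7.24 per Mb, 0.242 times the 29.95 per Mb of the autosomes together. By peaks of each list the ratio was 0.266, 0.242 and 0.2498 (mean 0.253 ± 0.0126, SD, n = 3 lists). Without the 264 X origins (22.3%) in sequence shared with chromosome Y, the ratio of origins was 0.188. The X had nearly as many predicted G4s per Mb, 203 against 221, so it had 3.57 origins per 100 G4s against 13.6 on autosomes. Its GC content was 39.3% and its coding genes 5.89 per Mb, against 41.9% and 8.58 for the autosomes, and 46.8% of its bases were repeat-masked. Isolated origins made up 32.9% of X origins, and the median distance was 58.5 kb.

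Chromosome Y had 219 origins or 2.49 per Mb. Of these 74.0% were in 3 lists, 15.1% had a G4 within 500 bp (95% Wilson interval 10.9 to 20.4%) and 2.28% a TSS within 2 kb (0.979 to 5.23%). Sequence shared with chromosome X made up at least 50% of 146 of the 219 origins (66.7%), counted in 32-base words. Of these 146, 119 were in 3 lists. The other 73 origins amounted to 0.828 per Mb. Repeats cover 96.3% of the sequence of chromosome Y, and how many reads can be placed there was not tested.

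To set the chromosomes beside autosomal sequence of like GC content, origins in 1-Mb bins were divided by the mean number in autosomal bins of the same GC class. The classes were GC content rounded to whole percent, with bins at the low and high extremes pooled into the lowest and highest class. The autosomes other than 14 had ratios of 0.932 to 1.16, chromosome X had 0.489 and chromosome Y 0.126. Chromosome 14 had 0.768, with 0.852, 0.748 and 0.722 by the peaks of replicates 1, 2 and 3. The low values of chromosome 14 lay between 10 and 90 Mb, where the ratio was 0.669 (0.768, 0.635 and 0.618 in the lists), while the rest of the chromosome had 1.07. This stretch was chosen after the values were seen, and its cause was not tested. In windows of 10 Mb, 7 of the 12 windows of chromosome 14 were below 0.799, a level under which 5% of the 233 windows of the other autosomes lay, and the 17 windows of chromosome X had 0.327 to 0.691.

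**Figure D5:**
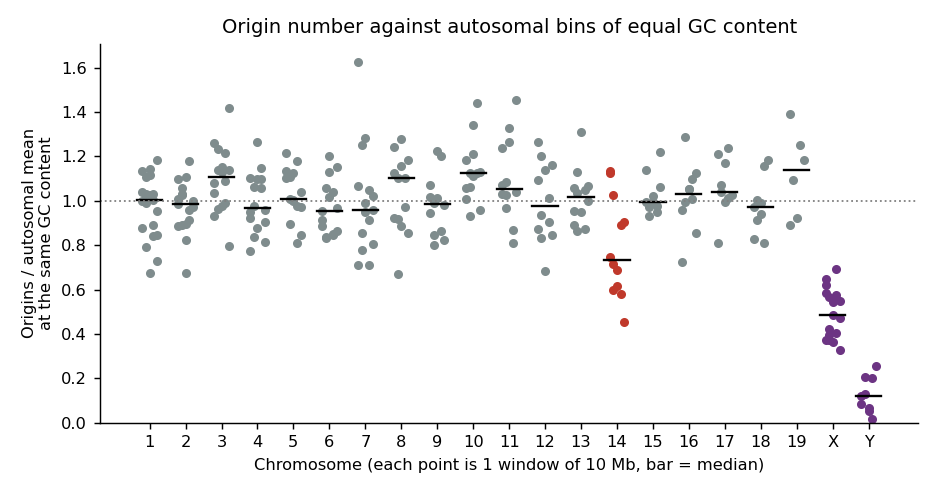
Origins in windows of 10 Mb over the mean number in autosomal bins of the same GC content (ratio), by chromosome, with 1 point for each window and a bar at the median. Of the 10 lowest autosomal windows 5 are on chromosome 14, and the windows of chromosome X lie between 0.327 and 0.691.

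Within chromosomes, density varied more widely. The 2613 bins of 1 Mb held a median of 20 origins, with the middle 50% between 10 and 36. The 10% of bins with the most origins, 261 bins, held 31.4% of all origins, and 42 bins held none, of which 36 on chromosome Y, 3 on chromosome X and 3 on autosomes. Over the autosomal bins ordered by GC content in 5 equal groups, the median rose from 8 to 15, 23, 33 and 60 origins, and the origins per 100 predicted G4s rose from 4.94 to 21.8. Spearman's rho of origins per bin was 0.901 with GC content, 0.839 with G4s and 0.746 with TSSs, over bins that share their libraries.

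The richest bin lay at 80 to 81 Mb of chromosome 10 and held 247 origins. It contains the cluster of 33 origins and 54 coding genes, among them the tumour suppressor kinase gene Stk11, the peroxidase gene Gpx4, the transcription factor gene Tcf3 and the histone methyltransferase gene Dot1l. The bin next to it, at 81 to 82 Mb, held 198 origins over genes such as the elongation factor gene Eef2 and the kinase gene Map2k2. Next came 19 to 20 Mb of chromosome 7, with 175 origins, over genes that include the DNA repair genes Ercc1 and Ercc2, the apolipoprotein gene Apoe and the NF-kB gene Relb.

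The ends of chromosomes were unequal. In the 5 Mb at the telomere end the median of the 19 autosomes was 35.8 origins per Mb, against 20 in the first 5 Mb of sequence at the centromere end, and the telomere end was higher on 14 of 19. Chromosome 19 went the other way, with 101.8 per Mb at the centromere end and 33.6 at the telomere end.

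Of 21000 protein-coding genes, 9486 (45.2%, 95% Wilson interval 44.5 to 45.8%) had an origin within 2 kb of a TSS, and these shares stand beside each list below. Among 20 genes of the pluripotency network 14 had one, and among 20 housekeeping genes 16. Esrrb, an orphan nuclear receptor gene of 160.5 kb, had 10 origins in the gene or within 2 kb of it. The much shorter Klf4 and Tbx3, both transcription factor genes, had 6 each and Gbx2, a homeobox gene, had 5. Per 100 kb, with the 2 kb on either side counted, Esrrb had 6.08, Klf4 64.2, Tbx3 33.0 and Gbx2 69.3. Pou5f1, the core pluripotency factor gene, had 2, both in 3 lists. The stronger of them (35509490 to 35510182 on chromosome 17), shown above, had folds of 13.9, 11.5 and 12.4 in replicates 1, 2 and 3, and lay 1029 bp from an alternative start of the gene.

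No origin was found at Nanog, a homeobox gene of the naive state, at Dppa3 and Dppa5a, genes of the germline and early embryo, or at Tdgf1, the Nodal co-receptor gene. The RNA of 3 of these genes was read in the control libraries, at 460, 468 and 430 CPM for Nanog, at 2442, 2194 and 1859 CPM for Dppa5a and at 1342, 1268 and 935 CPM for Tdgf1. Dppa3 had no peak in any list. Replicate 1 alone had 2 peaks at Nanog and 2 at Tdgf1, and Dppa5a had 3 peaks in replicate 1 and 1 in replicate 2 that did not overlap.

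Among 27 genes that encode replication initiation factors 11 had an origin at a TSS. Cdt1, which loads the MCM helicase, and Gins2, a part of the active helicase, had 4 origins each. In the gene or within 2 kb of it, 18 of the 27 (66.7%) had an origin, near the 64.9% of all coding genes. Those with none include Orc1 and Orc3 of the origin recognition complex and Mcm2 and Mcm4 of the helicase. Mcm2 had 9 peaks in replicate 1 and none in the other lists, while Mcm4 and Orc1 had no peak in any list. Of the 39 Hox genes, the homeobox genes that pattern the body axis, 24 had an origin at a TSS, and the highest number in a gene was 8 at Hoxb3. Neighbouring Hox genes overlap in part and share origins. Of 20 genes of differentiated cells 6 had one at a TSS, and 10 had one in the gene or within 2 kb. Rbfox3, a neuronal splicing gene of 422 kb, had 44, Cdh5, an endothelial cadherin gene, had 5, Gfap, of astrocytes, had 4 and Krt10, a skin keratin gene, had 3. None was found at Alb, which encodes serum albumin, the globin gene Hba-a1, or the insulin genes Ins1 and Ins2, among others.

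Gene families of the sensory system were nearly empty. Of 1107 olfactory receptor genes 23 (2.08%) had an origin at a TSS, and of 352 vomeronasal receptor genes 6 (1.70%). In contrast 61 of 64 replication-dependent histone genes (95.3%, 95% Wilson interval 87.1 to 98.4%) and 51 of 80 ribosomal protein genes had one. The cause of these differences was not tested, and histone genes lie in arrays, so that 1 origin can be counted for several genes.

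Very long genes held few origins for their length. Over 20 long genes, most of which are known for common fragile sites, 322 origins amounted to 1.00 per 100 kb, against 4.29 over all coding genes and 1.74 over the 556 coding genes longer than 300 kb. Density fell with gene length in general, from 11.4 per 100 kb in genes shorter than 10 kb, where the 2 kb on either side of the gene are counted with it. All 20 genes had an origin, but the number varied. Wwox, an oxidoreductase gene of 913 kb, held 36 origins, Macrod2 held 25 and Magi2 held 23. Cntn4, a neural adhesion gene of 1023 kb, held 3, Fhit, the gene of the most fragile site in human cells, held 7 over 1612 kb, and Nrxn3 held 8. Of the 556 genes longer than 300 kb 15 held none.

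Rai1, a transcription regulator gene that the study linked to an origin it edited in another mouse cell line, held 17 origins over 94.3 kb on chromosome 11, of which 8 were in 3 lists. Its density of 17.3 per 100 kb was above the 4.97 of coding genes of 30 to 100 kb. An origin of 3 lists lay 351 bp from its start (60104238 to 60105085), with folds of 5.73, 6.80 and 4.33 in replicates 1, 2 and 3. The strongest origin (60197637 to 60198498) lay at an untranslated part of an exon near its 3′ end, with folds of 9.64, 9.63 and 8.78.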

How the data were processed

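Peak lists of the 3 control SNS-seq samples were analysed in the mm10 build. The study's authors aligned reads with Bowtie2 (2.2.5) after adapter removal with cutadapt (1.9.1), as named in the submitters' processing notes, called peaks in each sample with MACS2 (2.1.0) against the same RNase-treated control library, and kept those that overlap SICER regions. The names of the peaks mark an adapter filter in replicate 2 and not in replicates 1 and 3. The deposited lists give a fold (ratio) over that control, a −log10 p-value and a −log10 q-value for each peak, with no read counts. For RNA-seq the deposited table holds read counts per gene, made with TopHat2 (2.1.1) and HTSeq (0.6.1p1), and 3 of its columns, of treated samples, were not used.

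Peaks were merged with 1 bp overlap on the 21 nuclear chromosomes. Distances run between midpoints. TSSs, gene models and sequences are from RefSeq on GRCm38.p6, the same assembly as mm10, with curated transcripts only for TSSs. G4s were predicted with a G4Hunter window of 25 bases and a threshold of 2. Strength is the percentile of fold enrichment within a list. The exact test permutes the signs of 3 within-list differences, two-sided, with Benjamini-Hochberg adjustment over 5 comparisons. Intervals are 95% Wilson intervals. Scripts ran in Python (3.11.15) with numpy (2.4.6), pandas (2.3.3) and scipy (1.17.1), and the merging, spacing and G4 code was tested on simulated data.

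The named loci are the 5 largest clusters, the 5 longest gap-free distances, the 5 strongest origins in 3 lists, the 3 richest 1-Mb bins, up to 4 genes with the most and 4 with the fewest origins of each gene list, and Rai1. The members and lists were chosen with earlier results of these data known. Alternatives were a peak in all 3 lists, the stronger peaks only, other overlap, linking, TSS and G4 rules, −log10 p as strength, and leaving out each list. Some genes that this rule selects are not reported here.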

Additional observations from a re-analysis of the deposited data

Results flagged for a closer look

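The mitochondrial genome lies outside the comparisons above, which use nuclear chromosomes only, and all 3 lists held peaks on it. Replicate 1 had 16 mitochondrial peaks over 11142 bp, replicate 2 had 10 over 6293 bp and replicate 3 had 7 over 1773 bp. Their median fold enrichment over the RNase-treated control was 1.70, 1.51 and 1.52, below the median of 4.91 to 5.57 of all peaks of the lists. Mitochondrial DNA is replicated by its own machinery and is present in many copies, and the source of these peaks was not tested.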

How the results depend on the processing

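No paired analysis was possible because the 3 lists form a single group and nothing is compared between groups that share replicate numbers. Taking only the stronger peaks, those with a −log10 p above the median of their list, gave 37719 origins at a median distance of 28.5 kb. Of these 39.6% had a neighbour within 7 kb and 17.4% were in clusters. Their median width was 430.0 bp, and the mean correlation of strength was 0.590 against 0.560. Requiring all 3 lists gave 35458 origins, 31.6 kb, 36.7%, 14.5%, 427 bp, 73.3% with a G4 and an X to autosome ratio of 0.265. With 1 list left out, origins numbered 44637 to 53589, the median distance was 17.5 to 24.1 kb, the share with a neighbour 42.4 to 53.7%, the clustered share 18.7 to 30.7%, the width 323 to 382 bp, the TSS share 16.3 to 29.4%, the G4 share 69.0 to 71.01%, the X ratio 0.246 to 0.260 and the correlation 0.537 to 0.586.

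With links of 3 kb, 44.1% had a neighbour and 20.3% were clustered, and with 20 kb 78.5% and 61.0%. Counting only the 2 kb upstream of a TSS gave 12.4%. A G4Hunter threshold of 1.5 gave 86.6% and a window of 250 bp 36.3%. With −log10 p the mean correlation was 0.494. The difference in strength between origins with and without a G4 turned negative with the stronger peaks only (-3.99 points), in 3 of 3 lists (-3.61), without replicate 1 (-1.71, the lowest of the values with 1 list left out, of which the highest was 2.57), at the threshold of 1.5 (-1.82) and within 250 bp (-0.32), and that between TSS and other origins turned positive with −log10 p (6.60). The cause was not tested. The difference between origins in 3 and in 2 lists has no value with 1 list left out or with 3 lists required. Leaving 1 list out did not change the sign of the clustered, TSS and X differences. Nor did leaving out origins over 1 kb wide, and leaving out origins near a TSS did not change that of the clustered and X differences, both alternatives chosen after seeing the data. Because depth is unknown and all lists share 1 control library, a region without a peak is not shown to lack initiation.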

Other observations

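Some further gene groups were examined after the values were seen, and are given as values only. Of 51 genes of the protocadherin clusters, which give neurons their surface identity, 1 had an origin within 2 kb of a TSS, and 30 (58.8%) had an origin in the gene or within 2 kb of it, near the 64.9% of all coding genes. The same gene body is shared by many of these transcripts, so an origin can be counted for several of them. Of 395 zinc finger protein genes 140 (35.4%) had an origin at a TSS, and of 53 keratin genes 10 (18.9%), against 45.2% of all coding genes. Among genes of small RNAs, 156 of 1228 miRNA genes (12.7%) and 93 of 1330 snoRNA genes (6.99%) had an origin in the gene or within 500 bp, against 59.99% of protein-coding and 37.2% of lncRNA genes, which are longer.

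The coding gene with the most origins was Gse1, a gene of a chromatin corepressor complex, with 72 origins over 353 kb, of which 37 were in 3 lists. Camta1, a calmodulin-binding transcription activator gene, had 52 origins over 802 kb, Rbfox3, the gene of the neuronal marker NeuN, had 44 over 422 kb, and Zfhx3 had 38 over 682 kb. At the other end, Dcc, the netrin receptor gene, held no origin over 1098 kb, and Diaph3, a formin gene on chromosome 14, none over 486 kb.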
